A study of Mus musculus with 9 samples.

Results

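NF-kB is a family of 5 DNA-binding subunits that act as pairs and are held back by inhibitor proteins. The genes described here are the 5 subunit genes (Nfkb1, Rela, Rel, Relb and Nfkb2) and 5 inhibitor or regulator genes (Nfkbia, Nfkbib, Nfkbie, Bcl3 and Tnfaip3) of the mouse. They were chosen by gene symbol, with earlier results of these data known. Each matched 1 row of the 24505 genes in the table of nascent transcription, so that 10 of 10 were found. All 10 passed the filter on low values that left 16563 genes for testing.

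The data come from organoids, or mini-guts, of mouse duodenum. Nascent transcription was measured by GRO-seq (global run-on sequencing, a count of transcripts that polymerases are in the course of making) in 3 cultures with 2 libraries each. The RANKL culture carries the name of the cytokine that drives formation of M cells, the antigen-sampling cells of the gut lining, and its cell type is given as M cell. The ENRI culture is labelled as enterocyte and the WENRC culture as stem cell. What the letters of ENRI and WENRC stand for, the RANKL dose, the culture times, and the strain, age and genotype of the animals are not given in the sources used here. The ENRI and WENRC libraries 1 and 2 came from mouse 1 and mouse 2. Nothing ties the RANKL libraries to those mice or says that they were separate cultures, so p-values measure the spread between libraries. H3K27me3, the histone mark of Polycomb repression, was mapped with ChIP-seq in 2 RANKL libraries, which the authors pooled, and in 1 WENRC library.

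As background, signalling through NF-kB runs along 2 arms. In the canonical arm a kinase complex marks IkB proteins for destruction, which frees pairs of RelA or c-Rel (from Rela and Rel) with p50 (from Nfkb1) to enter the nucleus. In the non-canonical arm, which RANK and some other receptors of the TNF receptor family switch on, the kinase NIK accumulates and leads to cutting of p100 (from Nfkb2) to p52, the partner of RelB (from Relb). Several inhibitor genes are themselves targets of NF-kB and close a feedback loop. Transcription of a gene says nothing about cutting, destruction or nuclear entry of its protein, which were not measured.

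The values below are on the log2 scale, as normalized and deposited by the authors, and a difference of 1 is 2-fold. They have the shape of a transform that draws low values together, so changes of low genes are understated. Changes of members with higher values were also smaller in size than the log2 changes deposited by the authors. Changes were tested with limma over all 16563 genes, and a gene passed at a Benjamini-Hochberg adjusted p (FDR) under 0.05. The read depth behind the GRO-seq values is unknown. The RANKL libraries were combined from a repeat sequencing per the file header, so an effect of that sequencing and one of the culture cannot be told apart. Calls that involve RANKL rest on both of its libraries, and the counts without either are given beside the total counts below. The summed level of 10 M cell markers, on the log2 scale, was 14.72 and 14.81 in RANKL against 10.45 to 11.46 in the other 4 libraries. Summed enterocyte markers were 15.56 and 16.37 in ENRI against 11.67 to 14.74 in the others, and summed stem cell markers were 13.75 and 13.86 in WENRC, 13.41 and 13.51 in RANKL and 10.90 and 11.35 in ENRI. Since leukocytes and stromal cells also transcribe NF-kB genes, their markers were summed too. The leukocyte sum lay between 9.54 and 9.86 in all 6 libraries, with 11 of 16 markers passing the filter, and RANKL (9.69 and 9.54) was not above the others. For fibroblast and muscle markers, of which 2 of 9 passed, the sum was 9.54 and 9.60 in RANKL against 8.09 to 8.72. Of these, Pdgfrb stood at 9.21 and 9.26 in RANKL against 6.44 to 7.68, whereas the collagen genes Col1a1, Col1a2 and Col3a1 were under the filter. The part of this sum in the results was not tested. In such bulk samples, fewer cells of a type and less RNA per cell cannot be told apart.

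The upstream sequences of 5 members are shown because they hold matches to the kB consensus, the sequence to which NF-kB pairs bind, in genes that the results below turn on. Each is the 250 bases before a start site in RefSeq on build GRCm38.p6, written 5′ to 3′ on the strand of the gene, with matches on either strand in capitals. RefSeq start sites were found for 8 of the 10 members and not for Relb and Nfkb1, so these were not searched. A match of the 10-base consensus occurs in 2382 of 32851 such windows (7.25%).
Nfkb2, chr19:46304487-46304736, plus strand: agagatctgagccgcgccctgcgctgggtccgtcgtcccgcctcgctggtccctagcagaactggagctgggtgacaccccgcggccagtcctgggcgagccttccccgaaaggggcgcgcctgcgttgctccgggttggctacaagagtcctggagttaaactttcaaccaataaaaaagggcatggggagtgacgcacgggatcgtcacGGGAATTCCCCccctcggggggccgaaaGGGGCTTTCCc
Nfkbia, chr12:55492648-55492897, minus strand: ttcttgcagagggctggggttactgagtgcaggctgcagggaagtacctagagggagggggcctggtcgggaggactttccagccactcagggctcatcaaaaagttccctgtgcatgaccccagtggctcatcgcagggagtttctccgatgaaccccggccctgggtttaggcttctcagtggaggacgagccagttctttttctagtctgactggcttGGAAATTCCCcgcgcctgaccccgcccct
Nfkbie, chr17:45555450-45555699, plus strand: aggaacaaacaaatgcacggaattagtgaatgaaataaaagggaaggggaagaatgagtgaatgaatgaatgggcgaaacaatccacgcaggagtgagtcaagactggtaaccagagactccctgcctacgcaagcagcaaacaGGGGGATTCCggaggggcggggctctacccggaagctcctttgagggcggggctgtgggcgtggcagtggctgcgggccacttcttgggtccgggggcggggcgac
Tnfaip3, chr10:19015411-19015660, minus strand: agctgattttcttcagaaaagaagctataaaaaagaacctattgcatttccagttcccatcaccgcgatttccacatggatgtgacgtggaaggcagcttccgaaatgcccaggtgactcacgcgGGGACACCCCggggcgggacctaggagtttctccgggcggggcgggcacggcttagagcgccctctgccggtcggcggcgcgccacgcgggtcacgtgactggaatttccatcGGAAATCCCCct
Rel, chr11:23770970-23771219, minus strand: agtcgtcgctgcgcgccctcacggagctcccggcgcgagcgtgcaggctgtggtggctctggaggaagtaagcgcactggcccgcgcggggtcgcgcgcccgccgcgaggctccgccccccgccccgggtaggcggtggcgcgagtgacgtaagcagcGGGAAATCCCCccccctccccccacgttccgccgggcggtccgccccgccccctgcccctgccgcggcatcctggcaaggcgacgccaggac
The Nfkb2 window holds 3 matches, of which 2 overlap each other by all but 1 base and 1 ends 1 base before the start site. The other 2 Nfkb2 windows, from start sites further downstream, hold 1 match each. Nfkbia holds 1 match 19 bases before its start, and Nfkbie holds 1 at 96 bases. Tnfaip3 holds 2, at 115 and 2 bases, and none before its other start site. Rel holds 2 overlapping matches at 82 and 81 bases. Bcl3, Nfkbib and Rela have none in these windows. Of the genes with matches, Nfkb2, Nfkbia, Nfkbie and Tnfaip3 passed the test against both cultures and Rel against neither. Of those without matches here, Bcl3 and Rela passed against both and Nfkbib against neither. Whether matches go with the changes was not tested. A match is a run of letters and not evidence of binding, which was not measured.

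The genes of the non-canonical arm were highest in RANKL, intermediate in ENRI and lowest in WENRC. Relb (NM_001290457, mm9 chr7:20191572-20214787, minus strand) encodes RelB. Its values were 11.44 and 11.50 in RANKL, 10.03 and 10.02 in ENRI, and 8.78 and 9.12 in WENRC. The 3 cultures did not overlap, and the steps between them were several times the spread within each. Relb was higher in RANKL by 1.45 (SE 0.16, FDR 0.00418, limma), or 2.72-fold, than in ENRI and by 2.52 (SE 0.16, FDR 0.00146), or 5.74-fold, than in WENRC. Nfkb2 (NM_001177369, mm9 chr19:46379227-46386580, plus strand) encodes p100, the precursor of p52. Its values were 9.90 and 10.12 in RANKL, 8.46 and 8.25 in ENRI, and 7.57 and 7.75 in WENRC. The order and the separation were those of Relb. Nfkb2 was higher in RANKL by 1.65 (SE 0.16, FDR 0.00348), or 3.14-fold, than in ENRI and by 2.35 (SE 0.16, FDR 0.00181), or 5.09-fold, than in WENRC. Nfkb2 overlaps Psd on the other strand, and the strand handling of the counting is not given in the sources used here, so reads of Psd may be included.

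Relb and Nfkb2 were the 2 members that passed the test between the cultures without RANKL in their name. Relb was lower in WENRC than in ENRI, with a difference of -1.08 (SE 0.16, FDR 0.0143, limma), and Nfkb2 with -0.70 (SE 0.16, FDR 0.0425). Of all tested genes, 9.74% were lower and 4.85% higher in WENRC by the same test. These libraries are paired by mouse. With the library number as a replicate block over all 6 libraries the FDR was 0.0276 for Relb and 0.0737 for Nfkb2, which no longer passed. That block also pairs the RANKL libraries, which nothing ties to the mice. With the block on only the 4 ENRI and WENRC libraries, neither Relb nor Nfkb2 passed. In the authors' deposited table the adjusted p was 0.00247 for Relb and 0.146 for Nfkb2. Nfkb2 also did not pass without a filter, with upper quartile scaling or without a variance trend, and Relb did. The test borrowed its error from the RANKL libraries: with only the 4 ENRI and WENRC libraries the FDR was 0.0712 for Relb and 0.126 for Nfkb2, and none of the members passed (limma, 2 at an unadjusted p under 0.05). Leaving out RANKL library 1 or 2, or WENRC library 1 or 2, likewise left 0 members past the threshold, with 2 at an unadjusted p under 0.05 each time. On the same deposited values, under every alternative run, the difference stayed between -1.25 and -0.90 for Relb and between -0.80 and -0.58 for Nfkb2.

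**Figure D1:**
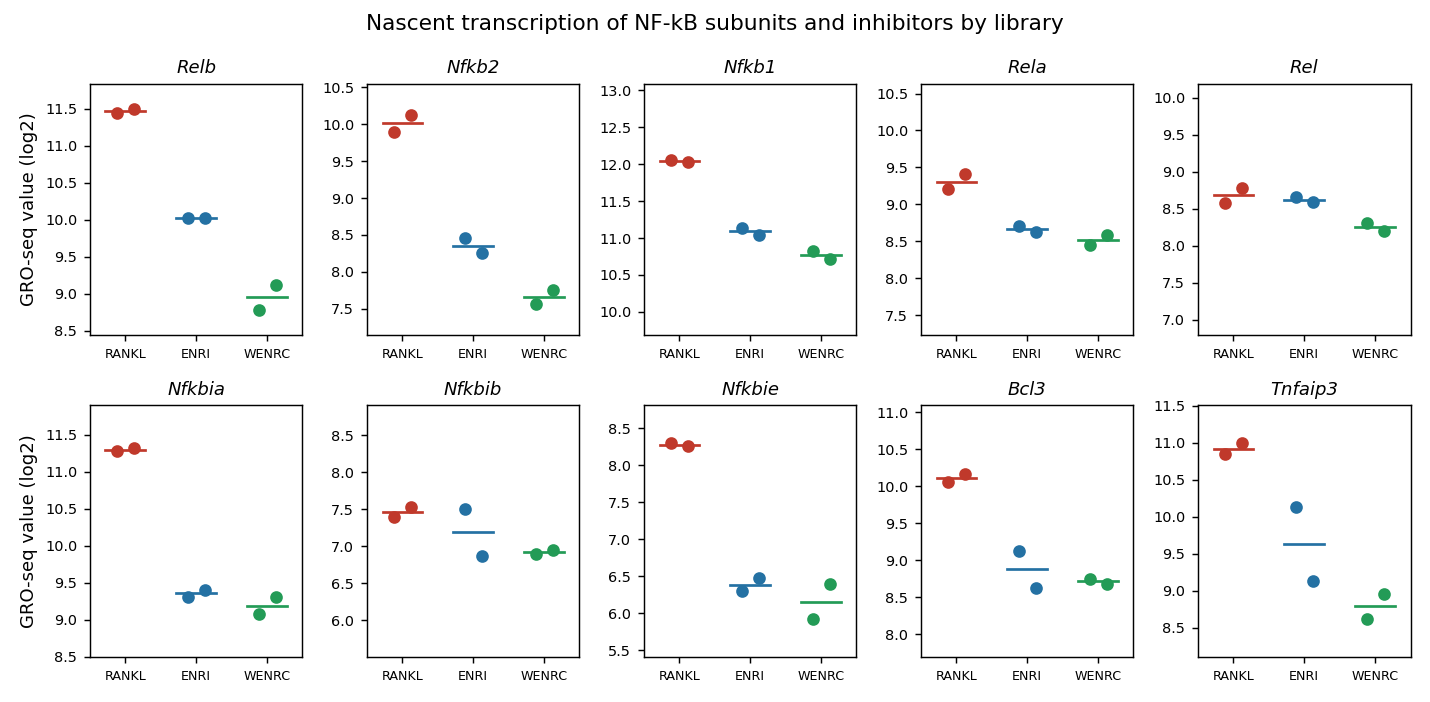
GRO-seq values (log2) of the 10 genes in each of the 6 libraries (points) with the mean of each culture (bars); every panel spans the same range of log2 units. Both RANKL points lie above the other 4 for every gene but Rel and Nfkbib, and the 2 ENRI points lie farthest apart for Tnfaip3.

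Of the canonical subunit genes, Nfkb1 and Rela were higher in RANKL than in either other culture and Rel did not pass. Nfkb1 (NM_008689, mm9 chr3:135247619-135354511, minus strand) encodes p105, the precursor of p50. It had values of 12.05 and 12.03 in RANKL, 11.14 and 11.05 in ENRI, and 10.83 and 10.72 in WENRC. These values also fell without overlap from RANKL through ENRI to WENRC, in smaller steps than for Relb. Nfkb1 was higher in RANKL by 0.95 (SE 0.13, FDR 0.00842, limma), or 1.93-fold, than in ENRI and by 1.27 (SE 0.13, FDR 0.00554), or 2.40-fold, than in WENRC. The call against ENRI was lost with a replicate block on only the 4 libraries compared (FDR 0.0546), and that against WENRC without WENRC library 2 (FDR 0.0563). Rela (NM_009045, mm9 chr19:5637490-5648130, plus strand) encodes RelA, the subunit with a strong activation domain. Its values were 9.21 and 9.41 in RANKL, 8.71 and 8.62 in ENRI, and 8.45 and 8.58 in WENRC. RANKL was above the rest by 0.64 (SE 0.15, FDR 0.0299), or 1.56-fold, over ENRI and by 0.79 (SE 0.15, FDR 0.0231), or 1.73-fold, over WENRC. The call against ENRI was lost with only the 4 RANKL and ENRI libraries in the fit (FDR 0.0644), without WENRC library 1 or 2 (FDR 0.0654 and 0.0652), with a replicate block (FDR 0.0552) and in the authors' deposited table (adjusted p 0.0714). The call against WENRC was lost without WENRC library 1 or 2 (FDR 0.140 and 0.114).

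Rel (NM_009044, mm9 chr11:23641729-23670970, minus strand) encodes c-Rel, a subunit best known from lymphocytes. Its values were 8.58 and 8.78 in RANKL, 8.65 and 8.59 in ENRI, and 8.31 and 8.20 in WENRC. RANKL and ENRI overlapped, while both WENRC libraries lay below the rest. The difference between RANKL and ENRI was 0.06, with a 95% interval from -0.30 to 0.41 (FDR 0.806, limma), and that between RANKL and WENRC was 0.42, with an interval from 0.07 to 0.78 (FDR 0.118). The intervals for ENRI leave room for a change of up to 0.41 in Rel, which lies below the estimate for each of the other 4 subunit genes in that comparison. Against WENRC, Rel passed at FDR 0.0467 with only the 4 libraries compared and at 0.0470 and 0.0462 without ENRI library 1 or 2.

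Set side by side, the non-canonical pair had larger changes than the canonical genes in each comparison with RANKL. The mean change was 1.55 for Relb and Nfkb2 against 0.55 for Nfkb1, Rela and Rel from ENRI to RANKL, a difference of 0.999. From WENRC to RANKL the means were 2.43 and 0.83, a difference of 1.61. These 2 comparisons share the RANKL libraries. Rel accounts for part of the gap: without it the differences were 0.75 and 1.41. From ENRI to WENRC the means were -0.89 and -0.28. No test was made of these means, since 5 genes are not replicates of a culture.

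Within single libraries the mean value of the non-canonical genes minus that of the canonical genes was 0.72 and 0.74 in RANKL, -0.26 and -0.28 in ENRI, and -1.02 and -0.73 in WENRC. The 3 cultures did not overlap. Per kb of gene, the same difference was 2.02 and 2.04 in RANKL, 1.04 and 1.02 in ENRI, and 0.28 and 0.57 in WENRC, so that the sign of the first set of values comes from the lengths of the genes, and the order of the cultures holds on both scales. Relb exceeded Rela by 2.23 and 2.09 in RANKL, by 1.32 and 1.40 in ENRI, and by 0.32 and 0.54 in WENRC. Nfkb2 minus Nfkb1 was -2.16 and -1.91 in RANKL, -2.68 and -2.79 in ENRI, and -3.26 and -2.97 in WENRC. Both pairings of a non-canonical with a canonical gene shifted toward the non-canonical gene in the order WENRC, ENRI, RANKL, without overlap of libraries. The differences within these pairs are not per length, so their sign and size depend on the lengths of the genes, and their change between cultures does not.

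**Figure D2:**
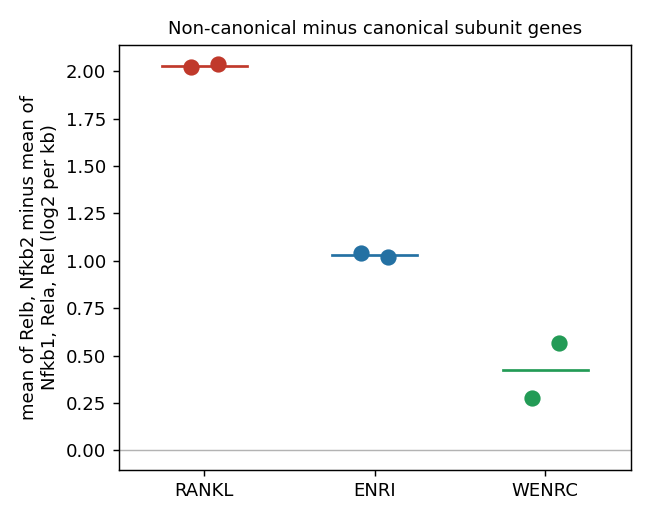
Mean log2 value per kb of Relb and Nfkb2 minus the mean of Nfkb1, Rela and Rel, with 1 point per library and a bar at the mean of each culture. The points lie at 2.02 and 2.04 in RANKL, 1.04 and 1.02 in ENRI, and 0.28 and 0.57 in WENRC, all above 0. Only differences between libraries are read from them, and not a level of one arm over the other.

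Among the inhibitors, Nfkbia and Nfkbie showed a pattern unlike that of the non-canonical subunits, with RANKL well above both other cultures and ENRI close to WENRC. Nfkbia (NM_010907, mm9 chr12:56590396-56593634, minus strand) encodes IkB-alpha, which binds NF-kB in the cytoplasm and is resynthesized when NF-kB is active. Its values were 11.28 and 11.32 in RANKL, 9.31 and 9.41 in ENRI, and 9.07 and 9.31 in WENRC. The rise was 1.94 (SE 0.14, FDR 0.00204, limma), or 3.84-fold, over ENRI and 2.11 (SE 0.14, FDR 0.00175), or 4.32-fold, over WENRC. Between WENRC and ENRI the difference was -0.17 (FDR 0.462). Nfkbie (NM_008690, mm9 chr17:45692649-45700117, plus strand) encodes IkB-epsilon, another cytoplasmic inhibitor. It had values of 8.30 and 8.25 in RANKL, 6.30 and 6.47 in ENRI, and 5.91 and 6.39 in WENRC. ENRI and WENRC overlapped here, with a difference of -0.23 (FDR 0.521), while RANKL was higher by 1.89 (SE 0.22, FDR 0.00477), or 3.72-fold, than ENRI and by 2.13 (SE 0.22, FDR 0.00513), or 4.37-fold, than WENRC. The authors' deposited table gives larger log2 changes for Nfkbie, 2.53 over ENRI and 2.88 over WENRC. It does so for every member that passed in RANKL. For Relb it gives 1.64 and 2.88, for Nfkb2 1.95 and 2.81, and for Nfkbia 2.22 and 2.41.

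Nfkbib (NM_010908, mm9 chr7:29543270-29551663, minus strand), which encodes IkB-beta, did not pass in any comparison. Its values were 7.39 and 7.53 in RANKL, 7.5 and 6.87 in ENRI, and 6.90 and 6.95 in WENRC. The ENRI libraries thus reached from the level of WENRC to that of RANKL. The difference between RANKL and ENRI was 0.28 (95% interval from -0.31 to 0.87, FDR 0.457, limma) and between RANKL and WENRC 0.54 (from -0.05 to 1.13, FDR 0.205). Without ENRI library 1 the first rose to 0.59 (FDR 0.0422), and without ENRI library 2 it was -0.04. Against WENRC, Nfkbib passed with only the 4 libraries compared (FDR 0.0341) and without ENRI library 1 or 2 (FDR 0.0363 and 0.0322). Nfkbib overlaps Ccer2 on the other strand. Nfkbia minus Nfkbib on the log2 scale was 3.88 and 3.79 in RANKL against 1.81 to 2.53 in the other 4 libraries, so these IkB genes did not move alike.

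Bcl3 (NM_033601, mm9 chr7:20393811-20408104, minus strand) encodes an IkB-like nuclear protein that works with p50 and p52 at promoters. It had values of 10.05 and 10.16 in RANKL, 9.13 and 8.62 in ENRI, and 8.74 and 8.68 in WENRC. RANKL was higher by 1.23 (SE 0.19, FDR 0.0115, limma), or 2.35-fold, than ENRI and by 1.40 (SE 0.19, FDR 0.0109), or 2.63-fold, than WENRC. ENRI and WENRC overlapped. Without WENRC library 1 or 2 the call of Bcl3 against WENRC was lost (FDR 0.0789 and 0.0927). Tnfaip3 (NM_009397, mm9 chr10:18720717-18735216, minus strand) encodes A20, a ubiquitin-editing enzyme that shuts off signalling upstream of the IkB kinases. Its values were 10.85 and 10.99 in RANKL, 10.13 and 9.13 in ENRI, and 8.62 and 8.96 in WENRC. The 3 cultures did not overlap, but the ENRI libraries lay farther apart than any other replicates of the 10 genes. Tnfaip3 was higher in RANKL by 2.13 (SE 0.33, FDR 0.0144), or 4.38-fold, than in WENRC and by 1.29 (SE 0.33, FDR 0.0411), or 2.45-fold, than in ENRI. The ENRI call was lost with only the 4 libraries compared (FDR 0.0832), without WENRC library 1 or 2 (FDR 0.0837 and 0.0830) and with a replicate block (FDR 0.0576). The WENRC call was lost without WENRC library 1 or 2 (FDR 0.107 and 0.0904). Without ENRI library 1 the difference between RANKL and ENRI was 1.79, and without ENRI library 2 it was 0.79. The difference between WENRC and ENRI was -0.84 (FDR 0.141), and without ENRI library 2 it was -1.34 and passed (FDR 0.00339).

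**Figure D3:**
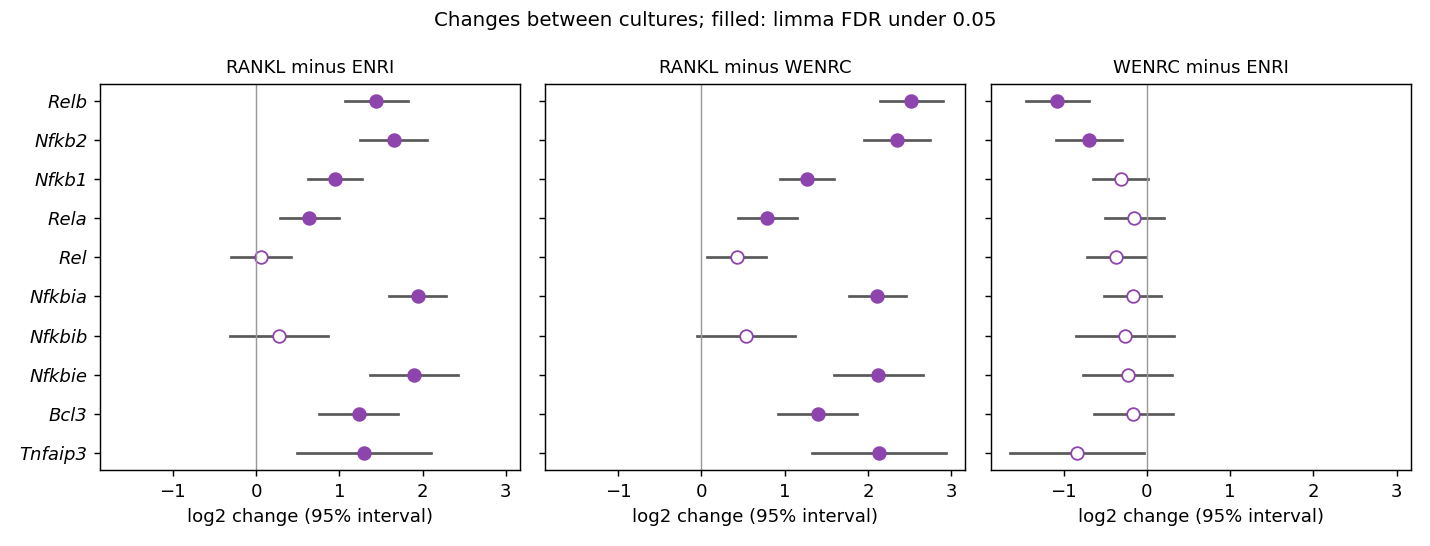
Log2 change of each gene in the 3 comparisons (points) with its 95% interval (lines); filled points passed limma at FDR under 0.05. The filled points are 8, 8 and 2, on the right of 0 in both panels with RANKL and on the left of 0 between WENRC and ENRI.

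In all, 8 of 10 members were higher and 0 lower in RANKL than in ENRI, where 10.4% of all tested genes were higher and 10.5% lower (limma, FDR under 0.05). The median change was 1.26 for the members and 0.00 for all tested genes. Against WENRC, 8 of 10 were higher and 0 lower, beside 8.53% higher and 3.62% lower among all tested genes, with a median of 1.75 for the members and -0.01 for all. The same 8 members (all but Rel and Nfkbib) had both RANKL libraries above all 4 others, a pattern shared by 20.3% of tested genes. In 6 of them, Nfkb1, Nfkb2, Nfkbia, Rela, Relb and Tnfaip3, the libraries also ran from RANKL through ENRI to WENRC without overlap, as in 4.22% of tested genes. The lower ENRI library barely cleared the higher WENRC library for Nfkbia (7.615 against 7.611 per kb) and for Rela (5.213 against 5.171). Only Relb and Nfkb2 passed the test between WENRC and ENRI, and both calls were lost with only the ENRI and WENRC libraries in the fit. The members were chosen with earlier results of these data known, and the calls rest on having 2 RANKL libraries. Without RANKL library 1 or 2, 1 and 0 members passed against ENRI (111 and 64 of all genes), and 0 and 0 against WENRC (0 and 0 of all genes). In each of these fits 8 members had an unadjusted p under 0.05. Without WENRC library 1 or 2, 5 and 4 members passed against WENRC. With upper quartile scaling the median of all genes in RANKL minus WENRC moved to -0.12 and the share of calls that were higher moved from 70.2% to 53.3%, and 8 members still passed, all higher.

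Levels of different genes are compared here per kb of gene, as mean log2 value per kb. Nfkbia, a short gene, stood highest in every culture, at 9.60 in RANKL, 7.66 in ENRI and 7.49 in WENRC. In RANKL it was followed by Nfkb2 (7.13) and Tnfaip3 (7.06), whose libraries overlapped, and then by Relb (6.93), Bcl3 (6.27), Rela (5.90), Nfkbie (5.38), Nfkb1 (5.30), Nfkbib (4.39) and Rel (3.81), each apart from the next. Nfkb2 and Relb thus stood above all 3 canonical subunit genes per kb in RANKL. This order rests on values that look transformed and on lengths from 7353 bp (Nfkb2) to 106892 bp (Nfkb1). Reads of Psd may be included in Nfkb2, and the order was not tested. In ENRI, Nfkbia was followed by Tnfaip3 (5.77), Relb (5.49) and Nfkb2 (5.48), which were not separate from each other. Then came Rela (5.26), Bcl3 (5.04), Nfkb1 (4.35), Nfkbib (4.12), Rel (3.75) and Nfkbie (3.48). The libraries of Tnfaip3 and Rela, of Rela and Bcl3, and of Nfkb1 and Nfkbib overlapped there. In WENRC, Rela (5.11) stood second, with Tnfaip3 (4.93), Bcl3 (4.88) and Nfkb2 (4.78) next, and then Relb (4.41), Nfkb1 (4.04), Nfkbib (3.86), Rel (3.39) and Nfkbie (3.25). The libraries of Rela and Tnfaip3, of Tnfaip3, Bcl3 and Nfkb2, and of Rel and Nfkbie overlapped. Rela therefore stood above Nfkb2 and Relb per kb in WENRC and below both in RANKL. Nfkbie was last in ENRI, level with Rel at the end of the order in WENRC, and above Nfkb1, Nfkbib and Rel in RANKL.

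The genes whose profile over the 6 libraries was most like that of Relb, by Euclidean distance between centred log2 values, were Ccl6 (0.33), Sp100 (0.43), C87977 (0.43) and Nfkb2 (0.44), against a median distance of 2.68 over all tested genes. Ccl6 encodes a chemokine and Sp100 a component of nuclear bodies. Sp100 had values of 8.83 and 8.85 in RANKL, 7.42 and 7.46 in ENRI, and 6.03 and 6.04 in WENRC. Nearest to Nfkb2 were Cd55b (0.27), 2200002D01Rik (0.33), Arhgef10 (0.34) and Cyp2j5 (0.34), with a median of 2.56. So Nfkb2 was among the 4 genes nearest to Relb, while Relb was not among the 4 nearest to Nfkb2.

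Other genes of the non-canonical pathway moved with its subunits in part. Of 11 genes listed, 10 were tested (Tnfsf11, the gene of RANKL itself, was under the filter). In RANKL, 5 were higher and 0 lower than in ENRI, and 5 higher and 0 lower than in WENRC (limma), with medians of 0.75 and 1.09. Among all tested genes, 10.4% were higher and 10.5% lower than in ENRI, and 8.53% higher and 3.62% lower than in WENRC. Tnfrsf11a, which encodes the receptor RANK and is also 1 of the M cell markers summed above, was at 12.42 and 12.43 in RANKL, 9.76 and 9.45 in ENRI, and 10.25 and 10.29 in WENRC. Its changes were 2.82 (FDR 0.00104) over ENRI and 2.15 (FDR 0.00181) over WENRC. Between WENRC and ENRI the difference in Tnfrsf11a was 0.66 (FDR 0.0396), of opposite sign to those of Relb and Nfkb2. That call was lost with a replicate block over all 6 libraries, and with only the 4 ENRI and WENRC libraries, with or without the block. It was also lost without RANKL library 1 or 2 or WENRC library 1 or 2. Traf3, Birc2 and Birc3 encode the proteins that keep NIK low in resting cells. They were higher in RANKL by 0.997, 1.05 and 1.07 than in ENRI and by 1.33, 1.22 and 2.09 than in WENRC. Birc3, which is also known as an NF-kB target, was lower in WENRC than in ENRI (-1.02, FDR 0.0109). The Birc3 call was kept with the block over all 6 libraries and lost under the other settings named for Tnfrsf11a. Map3k14, the gene of NIK, named here after its values were seen, was higher in RANKL by 0.99 (FDR 0.0127) than in WENRC and did not pass against ENRI (0.50, FDR 0.0603). Tnfrsf1b, the remaining gene to pass against ENRI (2.41, FDR 0.0413), had ENRI libraries at 7.99 and 5.90. Without RANKL library 1 or 2, 1 gene of this list passed against ENRI each time and 0 against WENRC (5 at an unadjusted p under 0.05), and without WENRC library 1 or 2, 3 and 2 passed against WENRC.

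Of 20 genes of the canonical kinase pathway, all tested, 2 were higher and 3 lower in RANKL than in ENRI. Against WENRC, 3 were higher and 0 lower. The medians were -0.03 and 0.13. Among all tested genes, 10.4% were higher and 10.5% lower than in ENRI, and 8.53% higher and 3.62% lower than in WENRC. Btrc, whose protein marks phosphorylated IkB for destruction, was higher in RANKL by 1.32 (FDR 0.00578, limma) and 1.34 (FDR 0.00772). Traf2, an adaptor of TNF receptors, was higher by 0.92 (FDR 0.00738) and 1.20 (FDR 0.00522). Irak4 and Tab3 were lower than in ENRI, by -0.85 (FDR 0.0212) and -0.73 (FDR 0.0394). Chuk, the gene of IKK-alpha, which serves both arms, was lower in WENRC than in ENRI (-1.11, FDR 0.0246), as were Ripk1, Irak4 and Tab3, so that 4 of 20 were lower and 0 higher in that comparison, beside 9.74% and 4.85% of all tested genes. With a replicate block over all 6 libraries, Ripk1 no longer passed. With the block on only the ENRI and WENRC libraries, none of the 4 passed. All 4 calls were lost with only the 4 ENRI and WENRC libraries, or without RANKL library 1 or 2 or WENRC library 1 or 2 (limma, 4 or 5 of 20 genes at an unadjusted p under 0.05). Without RANKL library 1 or 2, 0 of the 20 genes passed against ENRI (4 and 5 at an unadjusted p under 0.05) or against WENRC (4 and 4). Without WENRC library 1 or 2, 0 passed against WENRC (5 and 3).

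The remaining IkB proteins and nuclear regulators went both ways: of 10 tested, 3 were higher and 2 lower in RANKL than in ENRI. Against WENRC, 1 was higher and 0 lower. Among all tested genes, 10.4% were higher and 10.5% lower than in ENRI, and 8.53% higher and 3.62% lower than in WENRC. Nkap rose by 1.88 (FDR 0.00334, limma) over ENRI and by 1.71 (FDR 0.00522) over WENRC. Nfkbid, which encodes a nuclear IkB, was higher than in ENRI by 1.16 (FDR 0.0172), whereas Nkiras2, a Ras-like protein that binds IkB, was lower by -1.39 (FDR 0.0120) and Nfkbiz, which encodes IkB-zeta, by -0.84 (FDR 0.0189). Nfkbiz was also lower in WENRC than in ENRI (-1.19, FDR 0.0127), as was Pdlim2 (-1.15, FDR 0.0284). Both calls were lost with only the 4 ENRI and WENRC libraries, with or without a replicate block. That of Pdlim2 was also lost with a replicate block over all 6 libraries. Without RANKL library 1 or 2, 0 of the 10 passed against ENRI (limma, 5 and 4 at an unadjusted p under 0.05) or against WENRC (2 and 2), and Nkap did not pass against WENRC without WENRC library 2. Of 12 other feedback inhibitors, 1 was higher and 1 lower in RANKL than in ENRI, and 4 were higher and 0 lower than in WENRC. These counts stand beside the same shares of all tested genes. Tnip1, whose protein binds A20, was at 12.82 and 12.88 in RANKL, 10.92 and 10.91 in ENRI, and 10.18 and 10.19 in WENRC, a rise of 1.93 (FDR 0.00184) and 2.66 (FDR 0.00123). Tnip3, which encodes a related protein, was lower in RANKL than in ENRI by -3.01 (FDR 0.0311), with ENRI libraries at 9.60 and 7.30. Cyld, which removes ubiquitin chains from signalling proteins, was higher in RANKL than in WENRC by 0.74 (FDR 0.0190) and did not pass against ENRI. It was lower in WENRC than in ENRI (-0.95, FDR 0.0127, limma), as were Tax1bp1, Zc3h12a and Tnip1. So 4 of 12 were lower and 0 higher in that comparison, beside 9.74% and 4.85% of all tested genes. These calls were lost with only the ENRI and WENRC libraries, with or without a replicate block. Without RANKL library 1 or 2, 0 of the 12 passed against WENRC (limma, 5 and 5 at an unadjusted p under 0.05), and without WENRC library 1 or 2, 1 passed. The Tnip3 call was lost with only the 4 libraries compared.

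Of 25 genes known as responders to NF-kB, 18 were tested. In RANKL, 7 were higher and 2 lower than in ENRI, and 9 higher and 0 lower than in WENRC (limma), with medians of 0.77 and 1.12. Among all tested genes, 10.4% were higher and 10.5% lower than in ENRI, and 8.53% higher and 3.62% lower than in WENRC. Tnfaip2 stood at 9.88 and 9.96 in RANKL, 5.13 and 4.98 in ENRI, and 5.46 and 5.02 in WENRC, changes of 4.87 (FDR 0.000963) and 4.68 (FDR 0.00123). Icam1, a leukocyte adhesion molecule, stood at 9.21 and 9.09 in RANKL against 3.72 to 5.96 in the other 4 libraries. The chemokine gene Ccl9 was higher by 3.89 (FDR 0.00191) and 3.43 (FDR 0.00218). Tnfaip2 and Ccl9 are also M cell markers, so they belong to both lists. Ccl20, which encodes the chemokine that draws CCR6-bearing cells, was at 9.0 and 8.93 in RANKL, 7.78 and 8.05 in ENRI, and 5.84 and 5.65 in WENRC, in the order seen for Relb. The 2 genes that were lower in RANKL than in ENRI were Cd83 (-2.13, FDR 0.0126) and Irf1 (-0.78, FDR 0.0217). Between WENRC and ENRI, 5 of 18 were lower in WENRC and 0 higher, among them Ccl20 (-2.17, FDR 0.00624), Cd83 (-3.41, FDR 0.00841), Irf1 (-1.32, FDR 0.0103) and Csf2 (-1.64, FDR 0.0116). Of all tested genes, 9.74% were lower in WENRC. All 5 calls were lost with only the 4 ENRI and WENRC libraries and no block (limma, 7 of 18 genes at an unadjusted p under 0.05). They were also lost without RANKL library 1 or 2 or WENRC library 1 or 2. With a replicate block on only the ENRI and WENRC libraries, which pairs them by mouse, Ccl20 and Cd83 still passed as lower. With the block over all 6 libraries all 5 passed. In the comparisons with RANKL, leaving out RANKL library 1 or 2 left 3 and 2 responders higher than in ENRI and 0 and 0 higher than in WENRC (11 and 10 at an unadjusted p under 0.05), and leaving out WENRC library 1 or 2 left 3 and 4 higher than in WENRC. With only the 4 libraries compared, or without ENRI library 1 or 2, 14 of 18 were higher than in WENRC.

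**Figure D4:**
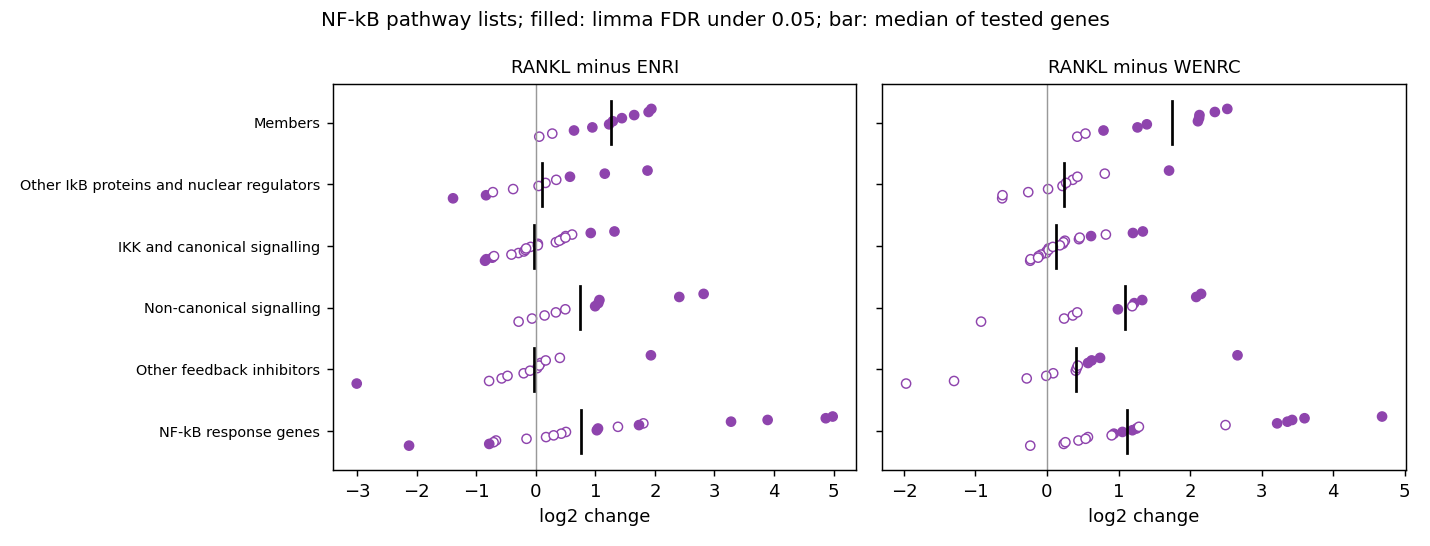
Log2 change of each tested gene in RANKL minus ENRI (left) and RANKL minus WENRC (right), for the 10 members and the 5 pathway lists; filled points passed limma at FDR under 0.05 and bars are medians. The members' medians (1.26 and 1.75) lie to the right of those of the canonical kinase list (-0.03 and 0.13) and of the non-canonical list (0.75 and 1.09).

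Regions that differed in H3K27me3 between RANKL and WENRC were looked up for the members. The authors' 2 tables list regions with more tags in one culture than in the other, 35798 higher in RANKL and 13607 higher in WENRC, from 32.7 M tags in pooled RANKL and 36.4 M in WENRC. Tags of WENRC are scaled to the RANKL depth. Fold and p-values of regions are the authors', compare those libraries and not the cultures, and have no replicate check. By nearest start site, 5 of 10 members had 1 or more WENRC-higher regions, beside 23.3% of tested genes, and 1 of 10 had a RANKL-higher region, beside 32.3%. These counts rest on 7 regions and 1 region, and no test was made of them.

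The region closest to a member's start was in Nfkbie, in intron 1, centred 738 bp from the start site (mm9 chr17:45693067-45693707). It held 21.6 tags in WENRC against 7 in RANKL, a fold of 3.09 (the authors' p-value 1.45e-05). It was also the only WENRC-higher region within 5 kb of a member's start site or inside a member's span. Nfkbie was 1 of the members with a large rise from WENRC to RANKL (2.13). ENRI, with a level of Nfkbie close to that of WENRC, has no H3K27me3 library here.

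The other 6 WENRC-higher regions were intergenic. Nfkb2 had 1 at 13.2 kb before its start (mm9 chr19:46365797-46366297), with 27 tags in WENRC against 11. Nfkb1 had 2, at 27.6 and 47.8 kb before its start, with 25.2 against 9 and 16.2 against 3 tags. Nfkbia had 2, at 20.7 kb before and 37.5 kb after its start, with 18 against 5 and 28.8 against 7 tags. It was the single member with a region in the other direction, 34.3 kb before its start (mm9 chr12:56627626-56628251), with 27 tags in RANKL against 9. Rel, which did not pass in GRO-seq, had 1 WENRC-higher region at 59.1 kb, with 18 against 6 tags. None of these regions overlapped a region of the other table. With 3 to 11 tags in the lower culture, each fold is imprecise.

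No region was assigned to Relb, Rela, Nfkbib, Bcl3 or Tnfaip3 in either table. For Relb, with the largest rise over WENRC among the members, the nearest WENRC-higher region of any gene lay 223 kb from the gene, and for Tnfaip3 it lay 203 kb away. The nearest RANKL-higher regions, assigned to other genes, lay 1.19 kb from Nfkbib, 5.44 kb from Rela, 5.45 kb from Nfkb2 and 5.52 kb from Nfkbie. These tables hold differences only, so a gene without a region may carry the mark at like levels in both cultures or lack it.

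**Figure D5:**
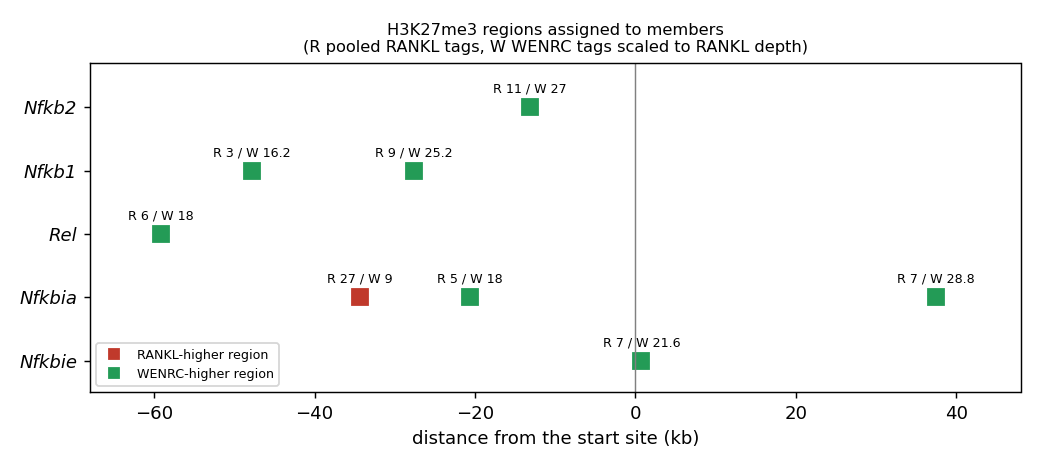
The 8 H3K27me3 regions assigned to members by distance from the start site (kb, negative before the start), coloured by the culture with more tags and annotated with the tags of pooled RANKL (R) and of WENRC scaled to the RANKL depth (W). The region in Nfkbie is the only one near 0, and the others lie 13.2 to 59.1 kb away.

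The responder genes of NF-kB were looked up in the same tables. WENRC-higher regions lay within 5 kb of the start site of 8 of 25 responder genes (32.0%), namely Icam1, Vcam1, Ccl9, Csf1, Nos2, Traf1, Tnfaip2 and Cd83, beside 1 of 10 members and 5.01% of tested genes. RANKL-higher regions lay within 5 kb for 6 of 25 responders (24.0%), namely Cd83, Cxcl5, Irf1, Lcn2, Plau and Tnfaip2, beside 0 of 10 members and 18.0% of tested genes. Cd83 and Tnfaip2 thus had regions in both directions. The 25 responders include genes under the filter, since 18 of them were tested in GRO-seq. The shares of all genes are over tested genes only, so the sets are unlike. The difference between the lists was not tested.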

How the data were processed

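The deposited GRO-seq values are log2 values. The authors counted reads along RefSeq genes (mm9, 1 transcript a gene) with HOMER and compared the cultures pairwise, per the file headers; the table's fold changes (log2), p-values and adjusted p-values are the authors' deposited tests. The submitters' processing notes also name Bowtie2 2.3.4.1 and DESeq2. Strand handling is not given in the sources used here. The H3K27me3 regions were called with HOMER by the authors, 1 culture against the other per the file headers: RANKL tags are deposited whole counts, WENRC tags are a deposited signal scaled by 0.9, and the fold of a region is the authors' ratio of both.

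Genes listed at 0 in every library (2131) were dropped. The filter kept 16563 genes with a value of at least log2(10), that is 10 on the linear scale, in 2 or more libraries. They were tested with limma 3.58.1 (R 4.3.3), 3 group means, a variance trend and no pseudocount. P-values are two-sided, Benjamini-Hochberg adjusted over all genes. The fit was tested on simulated data. The ENRI and WENRC numbers are mice, so they pair (the replicate differences correlated at 0.41 across genes, which are not independent); those of RANKL do not. Members and lists were chosen with earlier results of these data known. Named genes are the 10 members, up to 4 passing genes of smallest p per list and comparison, and the 4 nearest profiles to Relb and Nfkb2; further genes were named with their values in view. Alternatives were other library sets, a replicate block, filters, scalings, variance settings and each library left out.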

Additional observations from a re-analysis of the deposited data

How the results depend on the processing

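No called result turned its direction. Of the members' values under the alternatives, 375 stayed on the same side of the threshold, 67 lost it and 8 gained it. With only the 4 libraries compared, the genes passing numbered 1925 (RANKL and ENRI), 5194 (RANKL and WENRC) and 0 (WENRC and ENRI, limma, 4074 at an unadjusted p under 0.05), and 0 members passed between WENRC and ENRI. With a replicate block, 1506 genes and 1 member passed between WENRC and ENRI, which share mice; the block did not end the call of another member beyond Nfkb2 there and Rela and Tnfaip3 in RANKL and ENRI, where 6 passed, and 8 passed in RANKL and WENRC. The block with only 4 libraries gave 1423, 4686 and 124 genes, with 5 members in RANKL and ENRI and 0 in WENRC and ENRI. The RANKL numbers are not tied to mice. The authors' deposited test called 4604 genes in RANKL and WENRC, and 1 member in WENRC and ENRI. That last count was also 1 without a filter, with upper quartile scaling and without a variance trend. Scaling by upper quartile or quantiles moved the higher share of calls in WENRC minus ENRI from 33.2% to 54.1% and 51.7%. Leaving out 1 library gave 64 to 6966 genes and 0 to 9 members (RANKL and ENRI), 0 to 5176 genes and 0 to 10 members (RANKL and WENRC), and 0 to 6650 genes and 0 to 3 members (WENRC and ENRI). The non-canonical minus canonical change was 0.75 and 1.41 for RANKL over ENRI and WENRC without Rel, and -0.74 for WENRC minus ENRI with medians; leaving out 1 library gave 1.46 to 1.75 for RANKL minus WENRC and -0.75 to -0.46 for WENRC minus ENRI. Of the members' H3K27me3 regions, those with a fold of at least 4 numbered 0 (higher in RANKL) and 2 (higher in WENRC), 0 and 1 lay within 5 kb of a start site, and 0 and 1 overlapped the gene. The cause of these shifts was not tested.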
